A study of Mus musculus with 8 samples.

Results

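Heat shock proteins and DnaJ chaperones are the genes whose symbol, in the probe table or through its accession, begins with Hsp or Dnaj. The perlecan gene Hspg2 was left out because it encodes a matrix proteoglycan. This gave 99 of 24341 probes and 73 genes, of which 71 carry a current Hsp or Dnaj symbol. The other two, Tmem132a and Tmem208, entered through older names in the file and are described apart. Where a gene had several probes, the brightest over all 8 arrays was taken, and 20 of the 73 genes had several probes.

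The samples were spontaneous mammary tumours of FVB/N-TgN (MMTVneu)-202Mul mice, which carry the neu oncogene under the mouse mammary tumour virus promoter. The same strain and transgene were shared by every sample. There were 4 tumours treated with imiquimod cream for 1 cycle and 4 treated with control cream. Imiquimod is an agonist of the innate immune receptor TLR7, given here on the skin. The comparison asks how chaperone transcripts differed between treated and control tumours. The labels give neither the age of the mice nor the number of animals behind the tumours of a group. The p-values therefore cover the variation among these 8 samples and no more, and some of that variation may be technical.

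Heat shock proteins keep other proteins folded. Hsp70 proteins (the Hspa genes) bind exposed stretches of unfolded proteins in cycles of ATP hydrolysis, DnaJ proteins bring substrates to them and stimulate that hydrolysis, and nucleotide exchange factors such as Hsph1 reset the cycle. Hsp90 proteins finish the folding of kinases and steroid receptors, the Hspd1 and Hspe1 chaperonin folds proteins inside mitochondria, and small heat shock proteins (the Hspb genes) hold unfolded proteins without ATP. The factor Hsf1 drives the cytosolic genes from heat shock elements, and the unfolded protein response drives those of the endoplasmic reticulum from stress elements. ErbB2, the product of the neu gene, is a well known client of Hsp90.

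The promoter elements through which these branches are read are shown for a few members, with capitals marking the matched letters. Promoter windows of 300 bases (250 before and 50 after a transcript start) came from RefSeq, build GRCm38.p6, and were found for 56 of the 71 genes. The 3-unit heat shock element was searched as TTC, any 2 bases, GAA, any 2 bases and TTC, and the endoplasmic reticulum stress element as CCAAT, any 9 bases and CCACG. Both strands were read, and a match is a description of letters and not of factor binding. This heat shock element was present in 4 of the 56 members (7.14%), namely Hspd1, Hspe1, Hsph1 and Dnajb6, and in 0.662% of 27025 genes with a window. The Hsph1 match lies after its start. Of 2-unit forms, TTC, any 2 bases and GAA was present in 10.7% of members and 9.6% of genes. The form GAA, any 2 bases and TTC was present in 19.6% of members and 9.04% of genes. The chaperonin genes Hspd1 and Hspe1 lie head to head on chromosome 1 with their starts 216 bases apart. Their windows hold the same 2 overlapping matches, at chr1:55088059-55088076, shown here on the plus strand (Hspe1, chr1:55088029-55088106).
Hspe1: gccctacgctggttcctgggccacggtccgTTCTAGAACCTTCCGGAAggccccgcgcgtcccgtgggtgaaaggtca
The match in Dnajb6 (chr5:29735822-29735894, plus strand) lies before its start.
Dnajb6: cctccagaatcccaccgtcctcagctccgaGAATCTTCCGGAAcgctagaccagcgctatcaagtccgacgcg
The stress element was present in 3 of the 56 members (5.36%) and in 0.137% of all genes. These members were Hspa5 (chr2:34771995-34772073, plus strand), Hsp90b1 (chr10:86705503-86705686, minus strand) and Dnajc3 (chr14:118937797-118937875, plus strand), all of which encode proteins of the endoplasmic reticulum.
Hspa5: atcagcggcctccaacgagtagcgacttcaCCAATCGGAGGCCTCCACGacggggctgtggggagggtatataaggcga
Hsp90b1: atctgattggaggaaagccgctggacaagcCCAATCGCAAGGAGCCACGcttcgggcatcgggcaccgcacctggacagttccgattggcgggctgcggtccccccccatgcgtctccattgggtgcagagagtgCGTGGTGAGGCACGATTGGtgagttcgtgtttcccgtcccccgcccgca
Dnajc3: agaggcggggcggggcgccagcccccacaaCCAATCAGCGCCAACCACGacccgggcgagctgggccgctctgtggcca

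All values are log2 signals as deposited. Array medians lay between 6.816 and 6.824, and correlations between arrays ranged from 0.951 to 0.985 within a group and from 0.911 to 0.967 between groups. The luminal keratins Krt8 and Krt18, which mark the epithelium of these tumours, had log2 signals of 11.07 to 11.97 in all 8 tumours. Krt18 read 11.53 to 11.74 with imiquimod, below every control (11.77 to 11.97), a difference that did not pass the test used below. Not every luminal marker was bright, and Epcam read 6.52 to 6.94, near the array medians. Of the 71 chaperone genes, 60 passed the filter on dim probes (a mean log2 signal of at least 6.639). The 11 that did not were Dnajb14, Dnajc1, Dnajc5g, Dnajc9, Dnajc10, Dnajc15, Hspa1l, Hspa4l, Hspa12a, Hspa13 and the pseudogene Hspe1-ps2. Their means lay between 6.16 and 6.64, below the array medians, and their log2 differences between -0.16 and 0.16. Signals this dim cannot show whether these genes changed. The inducible genes Hspa1a and Hspa1b were not analysed here.

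No chaperone gene passed the test between treated and control tumours. With limma and Benjamini-Hochberg adjustment over all 13143 genes and unnamed probes, 0 of 60 members had an adjusted p below 0.05, whereas 4.33% of all genes did (2.13% higher and 2.2% lower with imiquimod). At an unadjusted p below 0.05 the number was 8 of 60 (13.3%), 5 higher and 3 lower, against 20.5% of all genes. The median log2 difference (imiquimod minus control) was -0.01 over the members and -0.02 over all genes tested. It was above 0 in 27 members and below 0 in 33. The treated and control values did not overlap in 5 members (8.33%), against 12.6% of all genes. Hspb8 and Dnajc8 were the members with every treated value above every control value (5.52% of all genes), and Dnaja1, Dnaja3 and Hspbp1 those with every treated value below (7.11% of all genes).

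A call that misses the threshold does not show that 2 groups are alike, so the width of each estimate matters. The 95% interval of the log2 difference, unadjusted for the number of genes, stayed within -0.5 and 0.5 in 45 of 60 members (75%), against 72.1% of all genes tested. It stayed within -1 and 1 in 57 members, the exceptions being Hspb8, Hspb1 and Dnajc6. Of the 60 members, 17 had a mean log2 signal under 7, and in such dim genes a narrow interval says little.

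**Figure D1:**
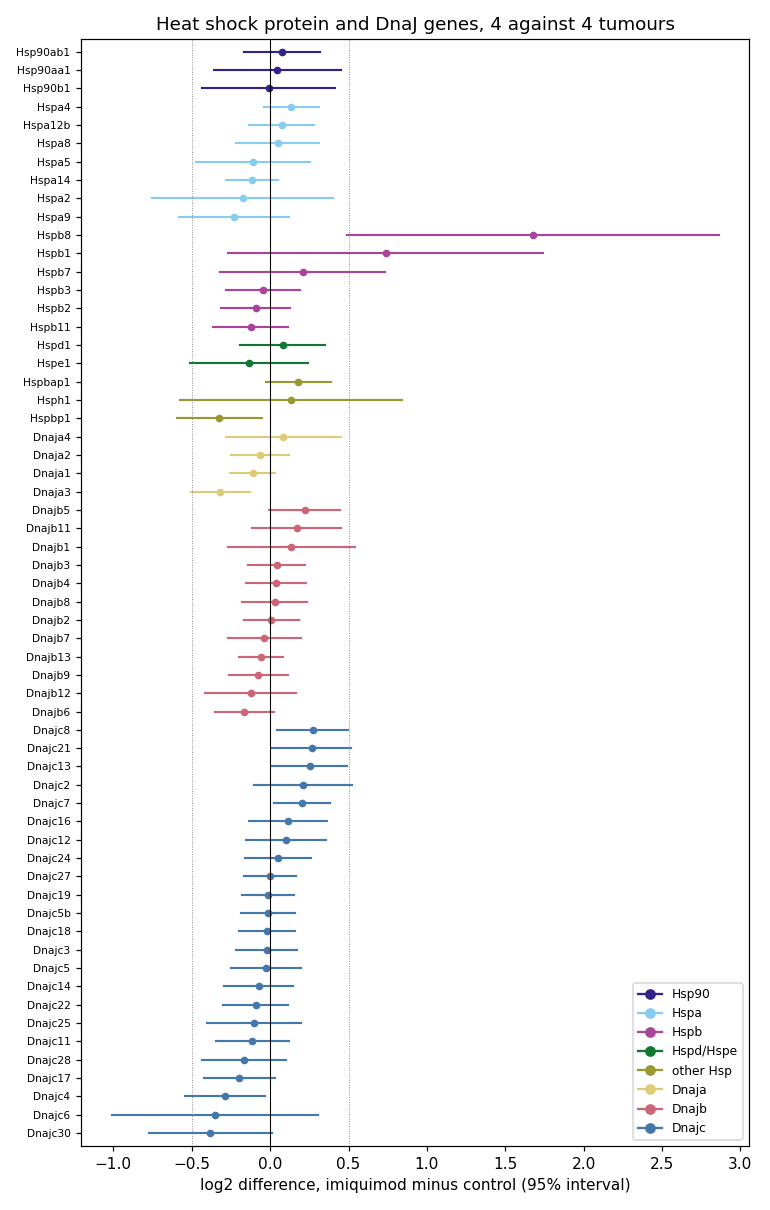
Log2 difference (imiquimod minus control, x axis) with its 95% interval for the 60 chaperone genes tested, coloured by subgroup, 4 tumours against 4. Points and lines stand for limma estimates, dotted lines mark -0.5 and 0.5, and Hspb8 (1.68) and Hspb1 (0.74) lie farthest to the right.

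The Hsp90 genes had the same mean in both groups to within a log2 difference of 0.08. Hsp90ab1, the constitutive cytosolic Hsp90, had log2 signals of 12.04, 12.11, 12.19 and 12.31 in control tumours 1 to 4 and of 12.20, 12.23, 12.03 and 12.50 in imiquimod tumours 1 to 4. Imiquimod 3 lay just below every control, imiquimod 4 lay above every control, and imiquimod 1 and 2 lay within the control range. The log2 difference was 0.08 (SE 0.11, 95% interval -0.17 to 0.32, limma adjusted p = 0.749). Its other probes gave 0.13 and -0.12. Hsp90aa1, the heat-inducible cytosolic form, read 8.30, 8.26, 8.43 and 8.58 in controls and 8.05, 8.21, 8.57 and 8.92 with imiquimod. Imiquimod 1 and 2 lay below every control and imiquimod 4 above every control, so the mean log2 difference of 0.05 (SE 0.18, limma adjusted p = 0.919) covered tumours on both sides. Hsp90b1, the Hsp90 of the endoplasmic reticulum, read 10.19, 10.71, 10.54 and 10.06 in controls and 10.49, 9.97, 10.31 and 10.72 with imiquimod, a log2 difference of -0.01 (SE 0.19, 95% interval -0.43 to 0.42, limma adjusted p = 0.986). The highest of the 8 values lay in imiquimod 4 for all 3 Hsp90 genes.

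Among 11 Hspa genes, 7 were tested, and their log2 differences ranged from -0.23 to 0.14 with a median of -0.11. Hspa8, the constitutive cytosolic Hsp70, had log2 signals of 13.09, 13.30, 13.33 and 13.35 in controls and of 13.03, 13.26, 13.47 and 13.51 with imiquimod. The treated values lay on both sides of the controls (log2 difference 0.05, SE 0.12, 95% interval -0.22 to 0.31, limma adjusted p = 0.864). Its other probes gave 0.24 and 0.24. Hspa5 (BiP), the Hsp70 of the endoplasmic reticulum and the classical reporter of its stress response, read 7.53, 7.39, 7.45 and 7.46 in controls and 7.38, 7.27, 6.93 and 7.81 with imiquimod. The controls lay close together, while imiquimod 3 was the lowest and imiquimod 4 the highest of the 8 tumours (log2 difference -0.11, SE 0.16, limma adjusted p = 0.76). Hspa2, an Hsp70 best known from spermatogenesis, varied widely in both groups, from 10.12 to 11.12 in controls and from 10.14 to 11.10 with imiquimod (log2 difference -0.18, SE 0.25, limma adjusted p = 0.754). The mitochondrial Hsp70, Hspa9, had a log2 difference of -0.23 (SE 0.16, 95% interval -0.58 to 0.12, limma adjusted p = 0.452). Hspa4, which acts as a nucleotide exchange factor, and Hspa14, an Hsp70 bound to ribosomes, had log2 differences of 0.14 and -0.12 (limma adjusted p = 0.368 and 0.426). Both were dim, with control means of 6.96 and 6.72.

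Hsph1 (Hsp105), the cytosolic exchange factor for Hsp70 and a sensitive target of Hsf1, showed the same spread in a stronger form. Its log2 signals were 8.39, 8.51, 8.59 and 8.86 in controls and 8.03, 8.21, 9.07 and 9.56 with imiquimod. Imiquimod 1 and 2 lay below every control and imiquimod 3 and 4 above every control. The SD was 0.72 with imiquimod and 0.20 in controls (n = 4 each), and the log2 difference was 0.13 (SE 0.31, 95% interval -0.58 to 0.84, limma adjusted p = 0.867). Without imiquimod 3 and 4 it was -0.47 (SE 0.14, limma adjusted p = 0.251). Of the 60 members, 14 (23.3%) had their highest value in imiquimod 4, against 8.75% of all genes tested. These shares are a description, since genes of 1 tumour are not independent. Imiquimod 4 was also the highest tumour for Dnajb1 and Hspd1.

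**Figure D2:**
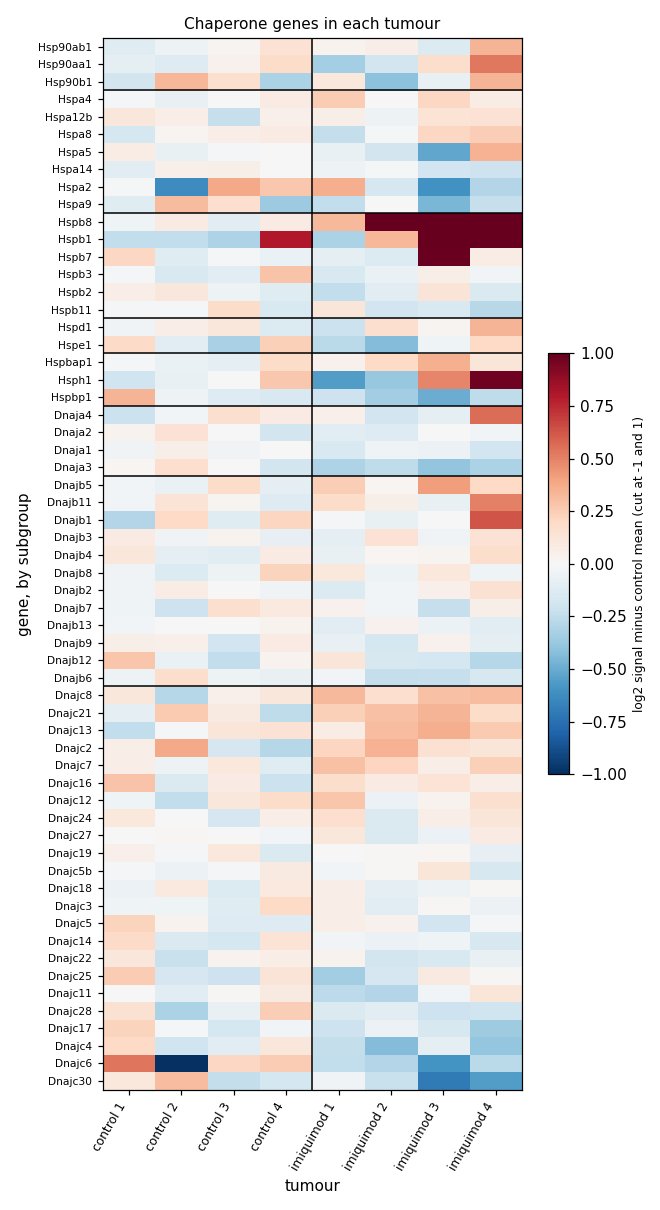
Log2 signal minus the control mean for each of the 60 chaperone genes tested (rows, grouped by subgroup) in each of the 8 tumours (columns), with colours cut at -1 and 1. Most cells are pale. The strongest red cells are Hspb8 in imiquimod 2, 3 and 4, Hspb1 in imiquimod 3 and 4, Hspb7 in imiquimod 3 and Hsph1 in imiquimod 4, and the strongest blue cell is Dnajc6 in control 2.

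The small heat shock proteins held the largest differences of the family, and these lay mainly in imiquimod 3 and 4. All 6 Hspb genes were tested. Hspb8, which works with the cochaperone Bag3 in clearing damaged proteins and is abundant in muscle, had log2 signals of 6.94, 7.07, 6.87 and 7.06 in controls and of 7.31, 8.20, 10.31 and 8.81 with imiquimod. Every treated tumour lay above every control, imiquimod 1 only just and imiquimod 3 by the most. The control mean was 6.98 ± 0.10 and the imiquimod mean 8.66 ± 1.26 (SD, n = 4 each). The log2 difference was 1.68 (SE 0.52, 95% interval 0.49 to 2.86) and did not pass (limma adjusted p = 0.111). It passed when imiquimod 1 was left out (2.13, limma adjusted p = 0.0269) and was 0.77 (limma adjusted p = 0.241) without imiquimod 3 and 4. Over 19 alternatives the adjusted p ran from 0.0269 to 0.241.

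Hspb1 (Hsp25), a small heat shock protein of epithelium and muscle that protects the actin skeleton, had log2 signals of 9.60, 9.60, 9.53 and 10.64 in controls and of 9.53, 10.17, 11.67 and 10.95 with imiquimod. Control 4 stood above the other controls and above imiquimod 1 and 2, so the groups overlapped. The log2 difference was 0.74 (SE 0.44, 95% interval -0.27 to 1.74, limma adjusted p = 0.395). Without imiquimod 3 and 4 it was 0.01 (SE 0.35, limma adjusted p = 0.995). Hspb7, a small heat shock protein of heart and skeletal muscle, stood apart in imiquimod 3 at 7.61, while the other 7 tumours lay between 6.49 and 6.83. The remaining members Hspb2, Hspb3 and Hspb11 had log2 differences from -0.12 to -0.05. Hspb2 and Hspb3 are known as muscle genes, and neither exceeded a log2 signal of 7.18 in any tumour. Their means of 6.81 and 6.87 lay near the array medians, so these low signals say little.

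Markers of several other cell types differed between tumours beside these values. Of 25 skeletal muscle markers, 22 were tested, and their mean log2 difference from the controls was 1.58 in imiquimod 3 and 1.06 in imiquimod 4, against -0.06 and -0.11 in imiquimod 1 and 2 and 0.29 at most in a control. The summed linear signal of the list ranged from 2567 to 4550 in controls and from 2783 to 14810 with imiquimod. The muscle actin Acta1 read 12.19 in imiquimod 3 and 10.84 in imiquimod 4, against 6.37 to 8.94 in the other tumours. Of the other muscle markers, Ckm and Ttn reached 7.40 and 7.96 in imiquimod 3 and stayed near the array medians in controls. Cryab, a small heat shock protein of muscle without an Hsp symbol and part of this list, read 11.50 in imiquimod 3 but also 11.26 in control 2, against 8.48 to 9.25 in the other tumours. The 13 fibroblast and matrix markers tested of 14 had mean log2 differences of -0.05, 0.76, 1.28 and 0.75 in imiquimod 1 to 4 (summed signal 1672 to 2158 in controls and 1846 to 6334 with imiquimod). Macrophage and monocyte markers (15 tested of 17) gave 0.81, 0.74, 1.43 and 1.21, with a summed signal of 3640 to 5271 in controls and 8036 to 14870 with imiquimod. Adipocyte markers (8 tested of 10) were high in imiquimod 2 and 3 (1.43 and 1.02). Keratinocyte markers (7 tested of 12) gave 1.06, 0.41, 0.51 and 0.15 in imiquimod 1 to 4. The single one called, Krt14 (log2 difference 1.39, limma adjusted p = 0.0361), was highest in imiquimod 2 at 9.06. Neutrophil markers (8 tested of 10) gave 0.15, 0.93, 1.09 and 0.71 in imiquimod 1 to 4. Their summed signal was 18180 to 31300 in controls and 35700 to 58290 with imiquimod, and Lcn2 made up most of it. In imiquimod 2, the tumour with the highest sum, Ltf (14.76) was nearly as high as Lcn2 (14.86). Lcn2 reached the highest value of the arrays, 14.86 in controls 2 and 3 and 15.07 in imiquimod 1, 3 and 4. The log2 differences of the list ran from -0.08 (Elane) to 2.89 (Ltf) with a median of 0.25, and none passed. Of these neutrophil markers, S100a8 read 7.32, 7.99, 9.88 and 8.45 in imiquimod 1 to 4 and 6.45 to 6.84 in controls, whereas Ltf was highest in imiquimod 2 (14.76). Endothelial markers (8 tested of 10) gave -0.01, -0.02, 0.53 and 0.62 (summed signal 1287 to 1907 in controls and 1561 to 2742 with imiquimod). Proliferation markers (18 tested of 20, 15 of which fell) were low in every treated tumour, at -0.85, -1.02, -1.11 and -1.20. The list means of lymphocyte markers (8 tested of 11) and luminal epithelial markers (14 tested of 16) stayed between -0.14 and 0.28 in the treated tumours. Single genes varied more, with log2 differences from -0.05 to 0.48 among lymphocyte markers and from -0.42 to 1.14 among luminal markers. The single luminal marker called, Muc1 (log2 difference 1.14, limma adjusted p = 0.0486), read 7.11 to 7.23 in controls and 7.77 to 9.22 with imiquimod. In such bulk tissue, more cells of a type and more RNA per cell cannot be told apart. The part of these cell types, or of proliferation, in the Hspb8 and Hspb1 values was not tested.

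**Figure D3:**
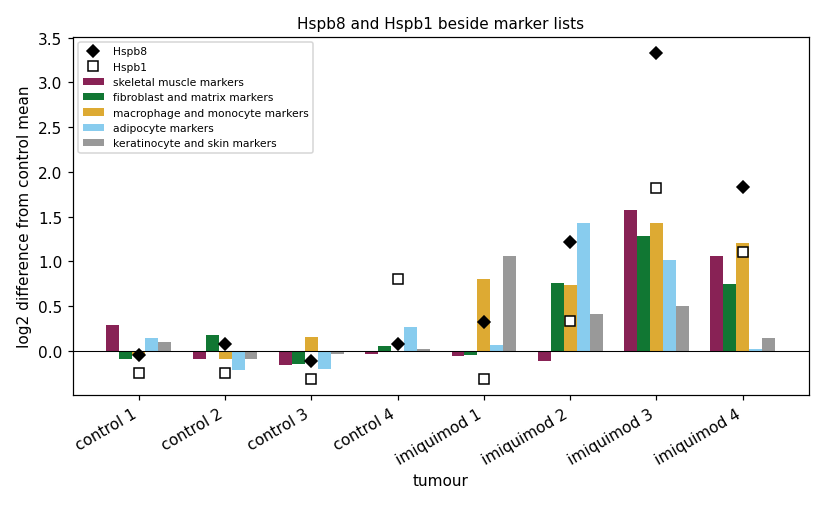
Hspb8 (filled diamonds) and Hspb1 (open squares) in each tumour, beside the mean of 5 marker lists (bars), all as log2 difference from the control mean. Hspb8 and the skeletal muscle, fibroblast and macrophage bars are all highest in imiquimod 3, and the muscle bars are near 0 in imiquimod 1 and 2.

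The mitochondrial chaperonin showed no called difference. Hspd1 (Hsp60), the ring-forming subunit, had log2 signals of 9.38, 9.48, 9.53 and 9.27 in controls and of 9.20, 9.58, 9.44 and 9.75 with imiquimod (log2 difference 0.08, SE 0.12, 95% interval -0.19 to 0.35, limma adjusted p = 0.768). Hspe1 (Hsp10), its lid, ranged from 7.95 to 8.51 in controls and from 7.84 to 8.48 with imiquimod (log2 difference -0.14, SE 0.17, limma adjusted p = 0.702). The groups overlapped for both genes, which share the heat shock element printed above. A second Hspd1 probe gave 0.19. A pseudogene copy, Hspe1-ps2, had a dim probe of its own, and whether the Hspe1 probe also binds its transcript was not tested.

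Of the 4 Dnaja genes, which resemble bacterial DnaJ most closely, Dnaja3 came nearest to the threshold of all 60 members. Dnaja3 (Tid1) works with Hspa9 in the mitochondrial matrix. Its log2 signals were 9.95, 10.10, 9.93 and 9.75 in controls and 9.62, 9.68, 9.54 and 9.62 with imiquimod. Every treated tumour lay below every control, by a log2 difference of -0.32 (SE 0.08, 95% interval -0.51 to -0.13), which did not pass (limma adjusted p = 0.0678). It passed when control 4 was left out (-0.38, limma adjusted p = 0.0495) and was -0.28 without imiquimod 3 and 4 (limma adjusted p = 0.39). A second, dim probe gave -0.11. Dnaja1, a cytosolic partner of Hsp70 and Hsp90, had no overlap either, from 6.96 to 7.05 in controls and from 6.80 to 6.96 with imiquimod, but the log2 difference was small (-0.11, SE 0.06, limma adjusted p = 0.375). Its signal was near the array medians and its other probes gave -0.02 and 0.09. Dnaja4, an inducible cytosolic member, read 8.38 in imiquimod 4 and 7.60 to 7.98 in the other tumours (log2 difference 0.08, SE 0.16, limma adjusted p = 0.828).

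**Figure D4:**
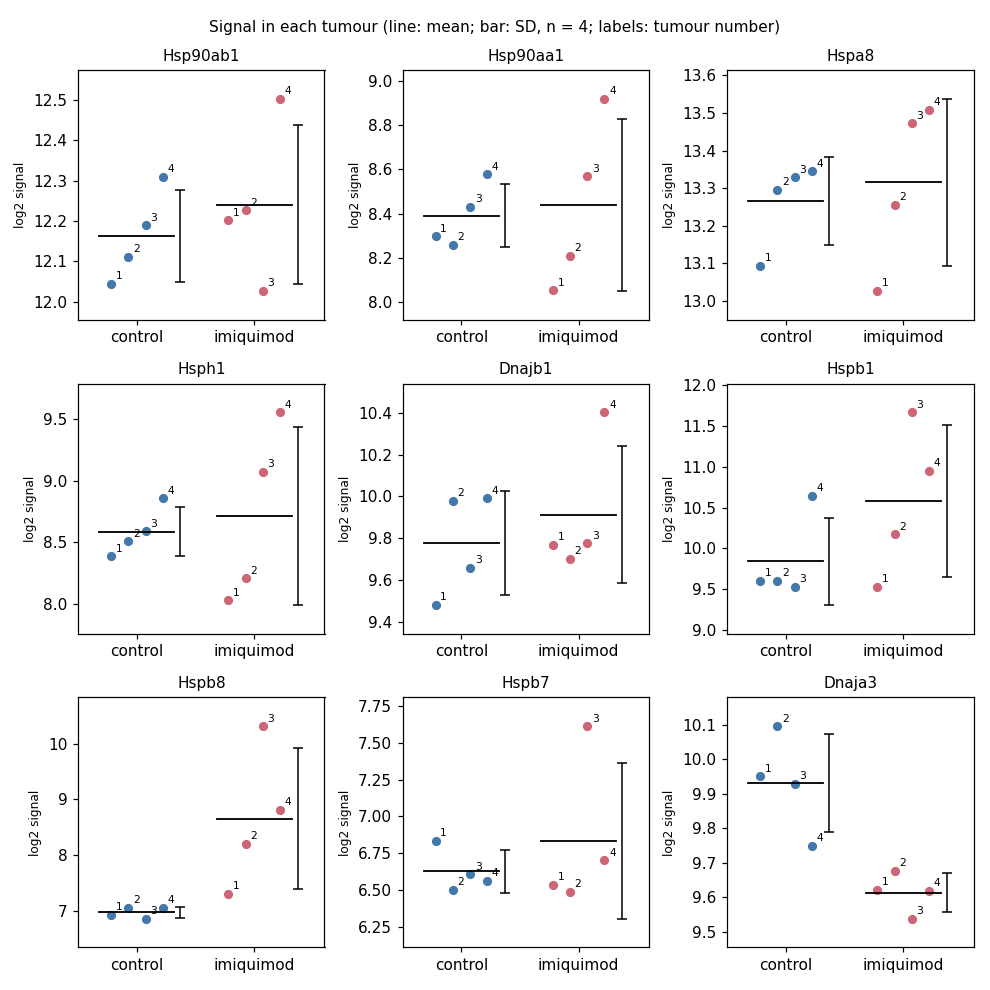
Log2 signal (y axis) of 9 chaperone genes in each control and imiquimod tumour, with tumour numbers, the mean (line) and the SD (bar, n = 4). Hspb8 and Dnaja3 have no overlap between groups, while Hsph1, Hsp90aa1, Hsp90ab1 and Hspa8 have treated tumours both below and above the controls.

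Of 13 Dnajb genes, 12 were tested, with log2 differences from -0.17 to 0.22 and a median of 0.02. Dnajb1 (Hsp40), the main heat-inducible partner of Hsp70, had log2 signals of 9.48, 9.98, 9.66 and 9.99 in controls and of 9.77, 9.70, 9.78 and 10.40 with imiquimod. Imiquimod 4 lay above the control range and the other treated tumours inside it (log2 difference 0.13, SE 0.18, 95% interval -0.27 to 0.54, limma adjusted p = 0.726). Dnajb11, a cofactor of Hspa5, likewise read 9.90 in imiquimod 4 and 9.26 to 9.58 in the other tumours (log2 difference 0.17, SE 0.12, limma adjusted p = 0.497). Dnajb9 (ERdj4), a target of the unfolded protein response, ranged from 6.87 to 7.14 in controls and from 6.88 to 7.10 with imiquimod (log2 difference -0.08, SE 0.08, limma adjusted p = 0.668), near the array medians. Dnajb6, which suppresses protein aggregates, and Dnajb5, an inducible member, had log2 differences of -0.17 (SE 0.08, limma adjusted p = 0.303) and 0.22 (SE 0.10, limma adjusted p = 0.257).

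The Dnajc genes share little beyond the J domain, and 23 of 28 were tested. Their log2 differences ranged from -0.38 to 0.27, with 5 at an unadjusted p below 0.05, 4 of them higher (Dnajc7, Dnajc8, Dnajc13 and Dnajc21) and 1 lower (Dnajc4). These 5 make 21.7% of the Dnajc genes tested, close to the 20.5% of all genes. A second Dnajc21 probe gave -0.04, against 0.26 for the brightest. The brightest Dnajc2 probe gave 0.21, and its other probes gave 0.32 and -0.09. Dnajc8, a nuclear protein linked to splicing, had log2 signals of 8.57, 8.17, 8.50 and 8.56 in controls and of 8.77, 8.61, 8.74 and 8.76 with imiquimod. Every treated tumour lay above every control, control 2 being lowest (log2 difference 0.27, SE 0.10, 95% interval 0.05 to 0.50, limma adjusted p = 0.162). Dnajc7, which binds both Hsp70 and Hsp90, read 10.45, 10.33, 10.49 and 10.26 in controls and 10.67, 10.60, 10.45 and 10.62 with imiquimod (log2 difference 0.20, SE 0.08, limma adjusted p = 0.19). Dnajc4 did not pass, with a log2 difference of -0.29 (SE 0.11, limma adjusted p = 0.188), from 8.40 to 8.80 in controls and from 8.16 to 8.50 with imiquimod. Dnajc5, the cysteine string protein of secretory vesicles, had a log2 difference of -0.03 (SE 0.10, 95% interval -0.25 to 0.20, limma adjusted p = 0.919). Dnajc6 (auxilin) strips clathrin coats from vesicles. It read 7.57 in control 2 and 8.78 to 9.10 in the other controls, against 7.97 to 8.32 with imiquimod (log2 difference -0.35, SE 0.29, limma adjusted p = 0.552). It was named after its values were seen, because without control 2 the log2 difference was -0.68 and passed (limma adjusted p = 0.025). Dnajc3 (P58IPK), whose promoter holds the stress element above, had a log2 difference of -0.02 (SE 0.09) at a control mean of 6.96.

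Among the remaining Hsp symbols, the Hsp70 exchange factor Hspbp1 had every treated value (7.47 to 7.75) below every control (7.81 to 8.30), with a log2 difference of -0.32 (SE 0.12, limma adjusted p = 0.165). Hspbap1, a protein that binds Hspb1, had 0.18 (SE 0.09, limma adjusted p = 0.318).

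Tmem132a, which the probe table lists as Hspa5bp1 after its binding to Hspa5, was the single gene caught by the symbol rule that passed the test. It is a membrane protein and not a chaperone. Its log2 signals were 10.08, 9.70, 10.22 and 9.86 in controls and 9.43, 9.40, 9.07 and 9.08 with imiquimod. Every treated tumour lay below every control, and it fell by 0.72 on the log2 scale (SE 0.14, 95% interval -1.02 to -0.41, limma adjusted p = 0.0229). The second probe gave -0.67. The call was lost with the replicate number as a block (limma adjusted p = 0.0541), without control 1, 3 or 4, and without imiquimod 3 or 4 (limma adjusted p up to 0.0659). Without imiquimod 3 and 4 together the log2 difference was -0.55 (limma adjusted p = 0.204). Tmem208, listed as Hspc171, had a log2 difference of -0.11 (SE 0.11, limma adjusted p = 0.637).

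In 4 lists of partners of the family, 4 of 93 tested genes passed (4.3%), against 4.33% of all genes. Of 29 tested Hsf factors and cochaperones, 1 rose and 1 fell, with a median log2 difference of -0.04, and 7 (24.1%) had an unadjusted p below 0.05, against 20.5% of all genes. Fkbp5, an Hsp90 cochaperone that restrains steroid receptors and is induced by glucocorticoids, rose from 7.62, 7.78, 7.66 and 7.79 in controls to 8.56, 9.91, 9.60 and 9.39 with imiquimod. The log2 difference was 1.65 (SE 0.24, limma adjusted p = 0.00942), and the call was lost without imiquimod 3 and 4 together (1.52, limma adjusted p = 0.105). Its relative Fkbp4, which promotes receptor activity in the same Hsp90 complexes, fell by 0.59 on the log2 scale (SE 0.12, limma adjusted p = 0.0277), from 10.43 to 10.55 in controls to 9.61 to 10.21 with imiquimod. Its adjusted p reached 0.0715 over the alternatives and lay above the threshold in 7 of 19, among them each control left out in turn. The other 5 cochaperone genes with an unadjusted p below 0.05 did not pass and lay on both sides of 0. The ubiquitin ligase Stub1 (CHIP), which acts on clients of Hsp70 and Hsp90, had a log2 difference of -0.32 (SE 0.08, limma adjusted p = 0.0626), with no overlap between groups. Bag2, an Hsp70 exchange factor that inhibits Stub1, had -0.40 (SE 0.11, limma adjusted p = 0.0863), and Aarsd1 had -0.45 (SE 0.15, limma adjusted p = 0.132), again with no overlap. Hsf1 itself had 0.51 (SE 0.16, limma adjusted p = 0.11), and Bag3, the partner of Hspb8 and a target of Hsf1, had 0.39 (SE 0.15, limma adjusted p = 0.172).

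None of 28 tested genes of endoplasmic reticulum folding and the unfolded protein response passed with limma, and 4 (14.3%) had an unadjusted p below 0.05. Their median was -0.09 and their range -0.80 to 0.41. None of 19 tested subunits and cofactors of the TRiC chaperonin and prefoldin passed either (1 at an unadjusted p below 0.05, 5.26%, median -0.00). Of 17 mitochondrial chaperones and proteases tested, 2 fell and none rose, with a median log2 difference of -0.13. The 2 called make 11.8% of the list, against 4.33% of all genes called in either direction and 2.2% called lower. At an unadjusted p below 0.05 there were 9 (52.9%), 8 of them lower, against 20.5% of all genes in either direction. Htra2, a protease of the intermembrane space, fell by 0.47 (SE 0.10, limma adjusted p = 0.0319), from 7.77 to 8.09 in controls to 7.40 to 7.67 with imiquimod. Timm44, which anchors Hspa9 to the import channel of the inner membrane, fell by 0.36 (SE 0.07, limma adjusted p = 0.0257), from 8.72 to 8.83 in controls to 8.28 to 8.51 with imiquimod. Both calls were lost with several single tumours left out (limma adjusted p up to 0.0843 for Htra2 and 0.0734 for Timm44) and without imiquimod 3 and 4 together (0.101 and 0.232).

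**Figure D5:**
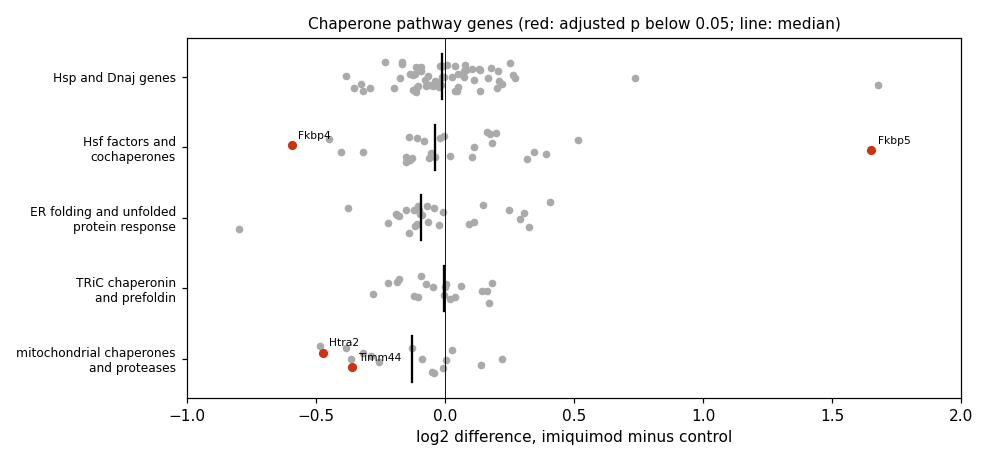
Log2 difference (imiquimod minus control) of each gene tested in the chaperone family and in 4 lists of its partners, with genes past an adjusted p of 0.05 in red and named, and the median of each row as a line. The chaperone row holds no red point, and Fkbp5 (1.65) and Fkbp4 (-0.59) lie at opposite ends of the cochaperone row.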

How the data were processed

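RNA from 8 tumours was amplified, labelled with biotin and hybridised to bead arrays, per the labels' protocols. The authors deposited 1 log2 value per probe and array. The arrays have almost the same distribution of values, which points to a between-array normalization before deposit. The submitters' processing notes name affy without a role, and no source used here describes a background correction or a detection call. The highest value differed between groups (14.858 and 15.074), while pairs of arrays shared exact values as often between groups (19.8% to 39.5%) as within them (18.4% to 40.1%). Probe names came from the other deposited file, whose 16 columns of per-sample values match no label and were not used. Of 24341 probes, 20038 were named through accession, 1620 through current symbol, 1736 through synonym and 692 by the file's own symbol, and 255 stayed unnamed.

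The dimmest 33.3% of probes by mean were left out, which kept 16228, and the brightest probe stood for a gene. The groups were compared by a two-sided linear model in limma 3.58.1 (R 4.3.3) without covariates, and p-values were adjusted by Benjamini-Hochberg over 13143 genes and unnamed probes. Data of 13143 genes were simulated as independent normal draws with the same spread in both groups. The fit recovered 21 of 50 genes changed by 0.5 on the log2 scale and 46 of 50 changed by 1. It recovered 49 of 50 changed by 2 and 50 of 50 changed by 3, with 5 false among 171 calls. These shares do not hold for genes with unequal spread, such as Hspb8 (SD 0.10 in controls and 1.26 with imiquimod). Genes were named by a rule: members past the threshold, in each of 7 subgroups the 2 brightest and the 2 with the smallest p, the genes Hspa1a, Hspa1b, Hsph1, Hspa5, Hsp90b1, Dnajb1 and Dnajb9, and up to 4 called genes of each partner list. All other genes in the text were chosen after their values were seen. Members and lists were chosen with earlier results of these data known. The labels do not say whether the replicate numbers pair the tumours. Correlations of deviations between same-numbered tumours were -0.02 to 0.04, which cannot settle it, so no pairing was used in the main fit. Alternatives covered normalization, background, the filter, the variance model, array weights, probe averaging, a replicate block and tumours left out. The number of arrays limits the precision.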

Additional observations from a re-analysis of the deposited data

Results flagged for a closer look

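Among 60 groups of 4 values, those of the named genes in each treatment, 5 held a tumour far from the other 3, and chance gives about 1 in 20. Hspb1 read 10.64 in control 4 against 9.53 to 9.60 in the other controls. Dnajb1 read 10.40 in imiquimod 4 against 9.70 to 9.78 in the other imiquimod tumours. The remaining 3 were smaller steps. Dnajb6 read 7.90 in control 2 against 7.65 to 7.68, Dnajb9 read 6.87 in control 3 against 7.10 to 7.14, and Dnajc8 read 8.17 in control 2 against 8.50 to 8.57.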

How the results depend on the processing

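Over 19 alternatives no chaperone gene passed in 16, and 1 passed in each of 3: Hspb8 without imiquimod 1 (higher), Dnajc6 without control 2 and Dnaja3 without control 4 (both lower). Leaving out 1 tumour at a time therefore gave 0 to 1 members called higher and 0 to 1 called lower, against 145 to 454 and 123 to 457 of all genes. Without imiquimod 3 and 4 together 71 genes were called higher and 41 lower, so tests with fewer tumours called fewer genes in most cases. Of 26 named members, 11 changed sign in at least 1 alternative, and none of these was called. Without imiquimod 3 and 4 together the log2 differences with a changed sign were -0.26 for Hsp90aa1, -0.13 for Hspa8, 0.10 for Hspa2, -0.47 for Hsph1, -0.024 for Hspd1, -0.070 for Dnaja4, -0.043 for Dnajb1 and 0.053 for Dnajc5, and with array weights 0.036 for Hsp90b1. With 1 tumour left out the log2 differences whose sign changed ran from -0.077 to 0.17 for Dnaja4, -0.029 to 0.21 for Dnajb1, -0.069 to 0.048 for Dnajc5, -0.11 to 0.18 for Hsp90aa1, -0.012 to 0.15 for Hsp90ab1, -0.12 to 0.13 for Hsp90b1, -0.26 to 0.030 for Hspa5, -0.015 to 0.15 for Hspa8, -0.0077 to 0.18 for Hspd1 and -0.15 to 0.36 for Hsph1. The partner lists moved too. Cochaperones called higher numbered 1 to 2 and those called lower 0 to 1 with 1 tumour left out, 0 were called higher without imiquimod 3 and 4, and 0 were called lower with an intensity trend. Endoplasmic reticulum genes called higher numbered 0 to 1, and mitochondrial genes called lower 0 to 3 with 1 tumour left out, 1 with an intensity trend and 0 without imiquimod 3 and 4. With the replicate number as a block, 0 members were called, 249 of all genes were called higher and 252 lower, 0 cochaperones and 0 mitochondrial genes were called lower, and Tmem132a was lost (limma adjusted p = 0.0541). The causes of these moves were not tested. Dim probes near the array medians limit what can be seen for 17 members.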
